A study of Mus musculus with 12 samples.

Results

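The genes described here are the chemokines and chemokine receptors of mouse muscle, found by gene symbol (Ccl, Cxcl, Ccr and Cxcr followed by a number, Cx3cl1, Cx3cr1, Xcl1, Xcr1 and Ackr1 to Ackr4), each represented by its brightest probe set with 1 symbol. There were 56 such genes, from 61 probe sets, among the 19938 genes measured: 19 CC ligands, 13 CXC ligands, 2 other ligands (Cx3cl1 and Xcl1), 10 CC receptors, 6 CXC receptors, 2 other signalling receptors (Cx3cr1 and Xcr1) and 4 atypical receptors. A further 7 probe sets of the family carry several symbols and were left out.

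Chemokines are small secreted proteins that guide moving cells, above all leukocytes, along a concentration gradient. Their names follow the spacing of the conserved cysteines near the N-terminus (CC, CXC, CX3C and XC). They act through membrane-spanning receptors that signal through Gi proteins. The atypical receptors (Ackr) bind chemokines without that signal and take them up or transport them. In skeletal muscle they are known for drawing monocytes and other leukocytes to damaged fibers. Several are also made at rest by vessels, fibroblasts and resident macrophages.

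The mRNA came from whole diaphragm and gastrocnemius muscle of male mice aged 10 to 12 weeks, in 4 groups of 3 arrays: WT gastrocnemius, Cox6a2-/- (KO) gastrocnemius, KO diaphragm and a group labelled WT diaphragm. All mice are given as C57Bl6. The KO mice lack Cox6a2 in every cell. The gene encodes a subunit of cytochrome c oxidase used in heart and skeletal muscle. The controls were age- and sex-matched C57BL/6J mice that the methods do not describe as littermates. The labels call the 3 arrays of a group biological replicates without naming the animals behind them, and p-values measure the spread between these samples. Values are log2 signals after RMA, a method that corrects, normalizes and summarises the probes of a gene. RMA gives no true 0 and no call of detection. By their mean signal, 44 of the 56 members lay below the median gene (log2 signal of 6.11). In whole muscle, fewer cells of a type and less RNA per cell cannot be told apart.

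The groups were checked before the members were compared. Cox6a2 lay between 11.65 and 12.06 on the 6 WT arrays and between 6.71 and 7.18 on the 6 KO arrays. Hoxc10, a gene of hindlimb position, lay between 8.36 and 8.75 on every array except the 3 of KO diaphragm (3.82 to 4.53), and Upk3b, a mesothelial gene of the diaphragm's surface, lay between 8.82 and 9.80 in KO diaphragm and between 5.0 and 5.56 elsewhere. Of 10 genes of hindlimb position 8 were lower in KO diaphragm by label and 9 were lower than in KO gastrocnemius. Of 6 genes of cervical position 4 and 5 were higher. Of 8 genes of skeletal muscle 4 were higher and 3 lower in each (median 0.37 and mean -0.17 by label). The arrays labelled WT diaphragm had correlations over all genes of 0.989 to 0.992 with WT gastrocnemius arrays and 0.963 to 0.975 with KO diaphragm arrays. These arrays therefore go against their label, and the group is called "the arrays labelled WT diaphragm" throughout. A difference drawn from them cannot be told apart from a difference between muscles. The comparison of KO diaphragm with KO gastrocnemius, a difference of group means that holds no WT array, is set beside it. Its p-values rest on a spread estimated over all 12 arrays.

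KO diaphragm stood apart from the other 3 groups in part of the family. All 3 KO diaphragm arrays lay above the other 9 arrays for 8 members (Ccl19, Ccr2, Cx3cl1, Cx3cr1, Cxcl12, Cxcl13, Cxcl16 and Cxcr5), against 14.4% of all genes, and below them for 5 (Ackr1, Ccl11, Ccl25, Cxcl14 and Cxcl3), against 9.02% of all genes. With 8 of 56 members the first share is at the background and the second is near it. Averaged over the 56 genes, the log2 signal was 5.16 to 5.26 in WT gastrocnemius, 5.09 to 5.11 in KO gastrocnemius, 5.21 to 5.24 on the arrays labelled WT diaphragm and 5.30 to 5.46 in KO diaphragm.

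**Figure D1:**
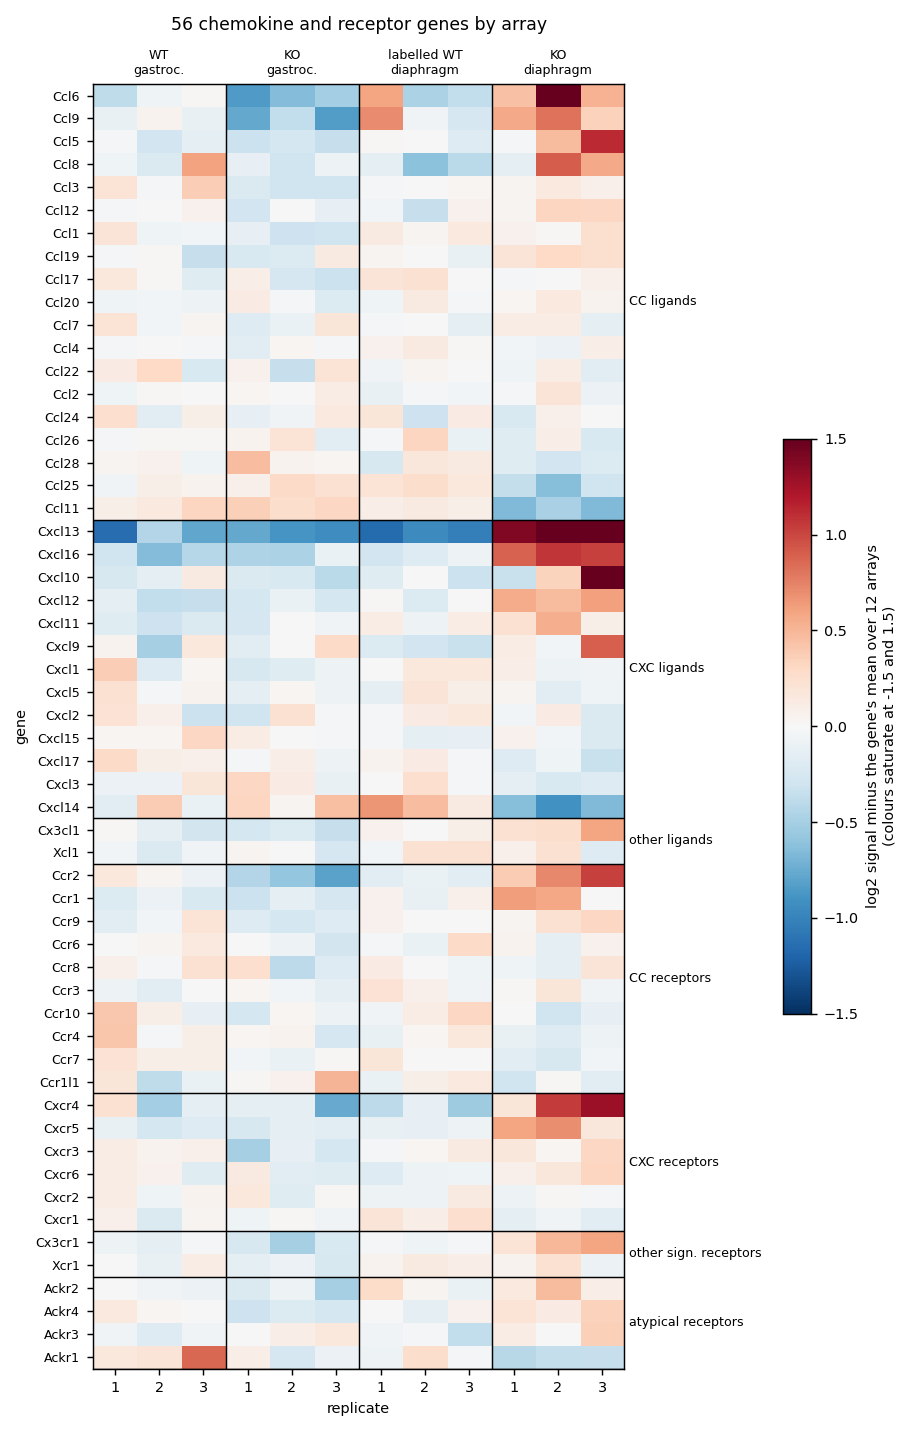
Log2 RMA signal of the 56 genes minus each gene's mean over the 12 arrays (colour), by gene (rows, grouped by class) and array (columns, 3 replicates of each of the 4 groups). Cxcl13, Cxcl16, Cxcl12, Ccr2 and Cxcr5 are above their mean on the 3 KO diaphragm arrays and Cxcl14, Ccl11 and Ccl25 are below it.

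In KO diaphragm against the arrays labelled WT diaphragm, 12 members were higher (21.4% of 56, against 16.3% of all genes) and 4 were lower (7.14%, against 11.2% of all genes) at a Benjamini-Hochberg adjusted p under 0.05 in limma. The split was 10 higher and 6 lower when each array was centred on its median, and 10 higher and 5 lower after quantile normalization. It was 8 higher and 5 lower when the comparison was fitted on its own arrays. In these fits 28.9%, 28.1% and 24.4% of all genes were called in either direction, beside 27.6% in the main fit. The median member differed by 0.05 on the log2 scale, the median of all genes by -0.04. In KO diaphragm against KO gastrocnemius, 21 members were higher (37.5%, against 17.7% of all genes) and 4 were lower (7.14%, against 11.2% of all genes), with a median of 0.14 beside 0.02 over all genes. Of these calls, 11 higher and 3 lower were made in both comparisons, which share the KO diaphragm arrays. KO gastrocnemius, the reference of the second comparison, had the lowest average over the 56 genes (5.09 to 5.11, beside 5.16 to 5.26 in WT gastrocnemius).

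The largest difference of the family was that of Cxcl13, the ligand that draws B cells into lymphoid follicles and into the body cavities. The 300 bases around its start, from 250 before to 50 after it (RefSeq, GRCm38.p6, chr5:95956689-95956988, plus strand), are shown because the results turn on this gene. They hold neither of the 2 motifs searched in the promoters of the family, which are described further on and would stand in capitals.
Cxcl13: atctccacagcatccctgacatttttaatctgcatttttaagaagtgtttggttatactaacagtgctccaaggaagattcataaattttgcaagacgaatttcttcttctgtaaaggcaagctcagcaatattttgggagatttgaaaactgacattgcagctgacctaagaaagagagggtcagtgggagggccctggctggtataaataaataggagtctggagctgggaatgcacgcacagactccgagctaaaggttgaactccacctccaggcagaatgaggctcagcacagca

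The log2 signal of Cxcl13 (probe set 10523359) was 5.26, 5.96 and 5.62 in WT gastrocnemius, 5.63, 5.52 and 5.47 in KO gastrocnemius, 5.24, 5.44 and 5.37 on the arrays labelled WT diaphragm, and 7.79, 10.09 and 9.41 in KO diaphragm. Every KO diaphragm array was above every other array, with replicate 1 well below the others of its group. The SD was 1.2 in KO diaphragm and 0.081 to 0.35 in the other groups. The fit pools these, so the intervals for KO diaphragm are narrower than its own spread would give. KO diaphragm was 13.4-fold higher than the arrays labelled WT diaphragm (log2 difference 3.74, 95% confidence interval 2.91 to 4.57, limma adjusted p = 7.62e-06) and 11.8-fold higher than KO gastrocnemius (3.56, interval 2.73 to 4.39, adjusted p = 1.03e-05). Leaving out each array of the first comparison in turn moved the log2 difference between 3.25, without KO diaphragm replicate 2, and 4.40, without KO diaphragm replicate 1. Cxcr5, the receptor of Cxcl13 on B cells and follicular T cells, was at 3.75, 3.60 and 3.67 in WT gastrocnemius, 3.62, 3.72 and 3.69 in KO gastrocnemius, 3.75, 3.74 and 3.79 on the arrays labelled WT diaphragm and 4.46, 4.56 and 4.03 in KO diaphragm. It was higher by 0.59 (interval 0.34 to 0.84, adjusted p = 0.00159) against the arrays labelled WT diaphragm and by 0.67 (0.42 to 0.92, adjusted p = 0.000539) against KO gastrocnemius, although its signal was low on every array. The array with the lowest Cxcl13 in KO diaphragm, replicate 1, was not the one with the lowest Cxcr5, which was replicate 3.

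B cell markers were also higher in KO diaphragm. Beside this and later counts of markers, 16.3% of all genes were higher and 11.2% lower against the arrays labelled WT diaphragm. Against KO gastrocnemius the shares were 17.7% and 11.2%. Of 8 measured B cell markers, 6 were higher in KO diaphragm than in the group labelled WT diaphragm and 7 were higher than in KO gastrocnemius, and none was lower. Their mean log2 signal was 5.11 to 5.71 in KO diaphragm, with replicate 1 lowest, against 4.47 to 4.59 on the arrays labelled WT diaphragm, 4.35 to 4.60 in WT and 4.37 to 4.47 in KO gastrocnemius. Ms4a1 (CD20) had a log2 difference of 2.53 (adjusted p = 1.17e-05) and Cd79b, part of the B cell receptor, of 1.66 (adjusted p = 0.000106) against the arrays labelled WT diaphragm, whereas Cr2, a complement receptor, was at 3.78 beside 3.82 and was not called. The part of these markers in the Cxcl13 and Cxcr5 results was not tested.

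Cxcl16 and Cxcl12 were the other CXC ligands that were higher in KO diaphragm in both comparisons. Cxcl16, made as a membrane protein by macrophages and endothelium, was at 5.22, 4.87 and 5.09 in WT gastrocnemius, 5.06, 5.05 and 5.42 in KO gastrocnemius, 5.23, 5.33 and 5.45 on the arrays labelled WT diaphragm and 6.41, 6.59 and 6.55 in KO diaphragm (probe set 10387890). The KO diaphragm arrays lay close together and far above the rest, 2.26-fold above the arrays labelled WT diaphragm (log2 difference 1.18, interval 0.92 to 1.44, adjusted p = 6.79e-06) and 2.53-fold above KO gastrocnemius (1.34, interval 1.08 to 1.60, adjusted p = 1.95e-06). Its receptor Cxcr6, found on activated T cells, was at 4.37, 4.46 and 4.62 in KO diaphragm and 4.10, 4.22 and 4.23 on the arrays labelled WT diaphragm, a difference of 0.30 that was not called (adjusted p = 0.0648). Cxcl12, which holds stem cells and leukocytes in their niches, was at 8.89, 8.80 and 8.95 in KO diaphragm, 8.35, 8.13 and 8.33 on the arrays labelled WT diaphragm, 8.07, 8.23 and 8.07 in KO gastrocnemius and 8.20, 7.96 and 7.99 in WT gastrocnemius. It was higher in KO diaphragm by 0.61 (interval 0.40 to 0.83, adjusted p = 0.000334) and by 0.76 (interval 0.54 to 0.97, adjusted p = 5.21e-05).

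Of the receptors of Cxcl12, Cxcr4 was called and Ackr3 was not. Cxcr4, its signalling receptor, was at 7.10, 7.97 and 8.20 in KO diaphragm, 6.53, 6.79 and 6.39 on the arrays labelled WT diaphragm, 6.78, 6.77 and 6.16 in KO gastrocnemius and 7.15, 6.41 and 6.77 in WT gastrocnemius (probe set 10357472). It was 2.28-fold higher in KO diaphragm in each comparison (log2 difference 1.19, interval 0.64 to 1.74, adjusted p = 0.00305 against the arrays labelled WT diaphragm and 0.00286 against KO gastrocnemius). KO diaphragm replicate 1 lay below WT gastrocnemius replicate 1, so that KO diaphragm overlapped WT gastrocnemius but neither of the groups it was compared with. Ackr3, the atypical receptor that removes Cxcl12, was at 6.61, 6.50 and 6.86 in KO diaphragm, 6.45, 6.47 and 6.13 on the arrays labelled WT diaphragm and 6.50, 6.60 and 6.65 in KO gastrocnemius, and was not called in either comparison (differences of 0.31 and 0.07, adjusted p = 0.0627 and 0.685).

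**Figure D2:**
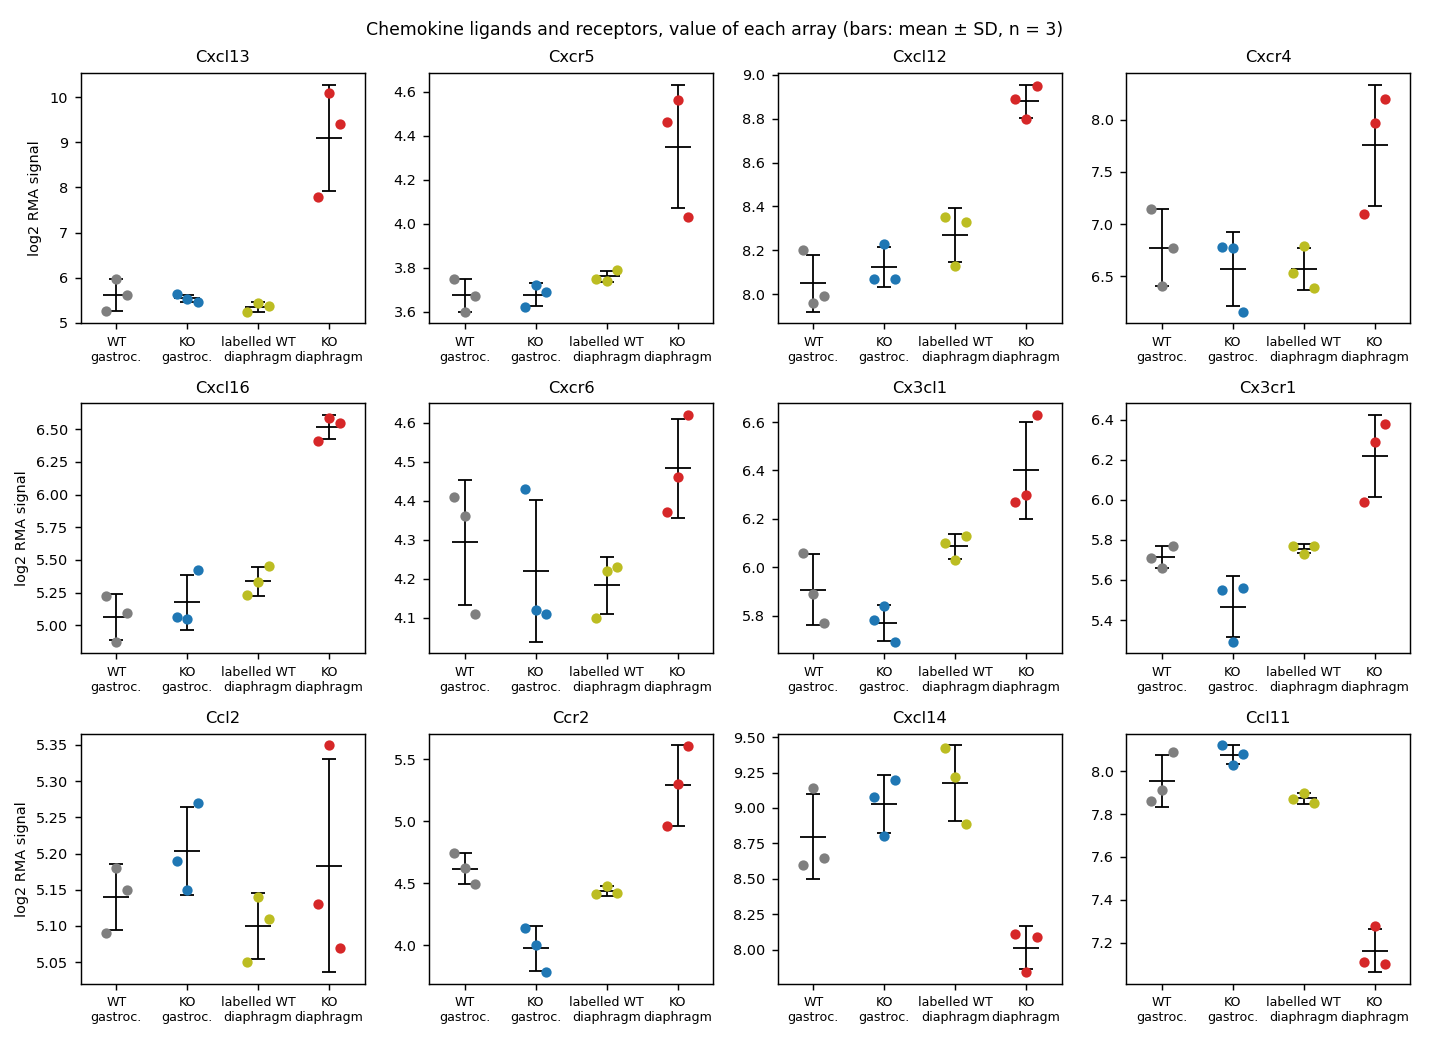
Log2 RMA signal (vertical axes, each panel with its own range) of 12 ligands and receptors, by group (horizontal axes, 3 arrays in each). Points are arrays and bars are the mean ± SD (n = 3); Cxcl13 in KO diaphragm runs from 7.79 to 10.09 and is at or under 5.96 on all other arrays, whereas Ccl2 differs by 0.08 between KO diaphragm and the arrays labelled WT diaphragm.

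Among receptors of the monocyte and macrophage lineage, Ccr2, which lets monocytes leave the marrow and enter tissue, was at 4.96, 5.30 and 5.61 in KO diaphragm, 4.41, 4.48 and 4.42 on the arrays labelled WT diaphragm, 4.14, 4.0 and 3.78 in KO gastrocnemius and 4.74, 4.62 and 4.49 in WT gastrocnemius (probe set 10590631). No group overlapped another, although the lowest WT gastrocnemius array was only just above the highest array labelled WT diaphragm. Ccr2 was higher in KO diaphragm by 0.85 (interval 0.55 to 1.15, adjusted p = 0.000448) against the arrays labelled WT diaphragm and by 1.32 (1.01 to 1.62, adjusted p = 9.61e-06) against KO gastrocnemius. Its best known ligand, Ccl2, was at 5.13, 5.35 and 5.07 in KO diaphragm beside 5.05, 5.14 and 5.11 on the arrays labelled WT diaphragm and 5.19, 5.15 and 5.27 in KO gastrocnemius, with differences of 0.08 (interval -0.11 to 0.28) and -0.02 (-0.21 to 0.18). Ccl2 values overlapped between these groups, and it was not called.

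Cx3cr1, the fractalkine receptor of resident macrophages and patrolling monocytes, was at 5.99, 6.29 and 6.38 in KO diaphragm, 5.77, 5.73 and 5.77 on the arrays labelled WT diaphragm, 5.55, 5.29 and 5.56 in KO gastrocnemius and 5.71, 5.66 and 5.77 in WT gastrocnemius. It was higher in KO diaphragm by 0.46 (interval 0.23 to 0.69, adjusted p = 0.00539) and 0.75 (interval 0.52 to 0.99, adjusted p = 0.000118). Its ligand Cx3cl1, anchored on endothelial cells, was at 6.27, 6.30 and 6.63 in KO diaphragm, 6.10, 6.03 and 6.13 on the arrays labelled WT diaphragm and 5.78, 5.84 and 5.69 in KO gastrocnemius. The difference of Cx3cl1 was 0.31 (adjusted p = 0.0469) and 0.63 (adjusted p = 0.000577). The first of these was lost without each of the 3 arrays labelled WT diaphragm and without KO diaphragm replicate 2 or 3 (adjusted p up to 0.211). Ccr1, a receptor of inflammatory CC ligands on myeloid cells, was at 4.13, 4.08 and 3.50 in KO diaphragm and 3.18, 3.37 and 3.25 in KO gastrocnemius, higher by 0.64 (adjusted p = 0.00311). Against the arrays labelled WT diaphragm, at 3.57, 3.39 and 3.58, it differed by 0.39 and missed the threshold (adjusted p = 0.0504).

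Several CC ligands of macrophages were higher in KO diaphragm, with wide spread between its arrays. Ccl6 was at 7.76, 9.06 and 7.85 in KO diaphragm, 7.92, 6.85 and 6.96 on the arrays labelled WT diaphragm, 6.47, 6.67 and 6.82 in KO gastrocnemius and 6.94, 7.26 and 7.34 in WT gastrocnemius. Replicate 1 labelled WT diaphragm lay among the KO diaphragm arrays. Ccl6 was higher by 0.98 (interval 0.32 to 1.64, adjusted p = 0.0285) against the arrays labelled WT diaphragm, a call lost without replicate 2 or 3 of that group or without KO diaphragm replicate 2 (lowest difference 0.56, adjusted p up to 0.128). It was higher by 1.57 (interval 0.91 to 2.23, adjusted p = 0.00142) against KO gastrocnemius. Ccl9, like Ccl6 a ligand made by mouse macrophages, was at 7.33, 7.58 and 7.11 in KO diaphragm, 7.47, 6.71 and 6.51 on the arrays labelled WT diaphragm and 6.0, 6.40 and 5.93 in KO gastrocnemius. It was higher by 1.23 than in KO gastrocnemius (adjusted p = 0.000376). The difference of 0.44 from the arrays labelled WT diaphragm was not called (adjusted p = 0.122), the same replicate 1 lying high.

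Ccl8, a monocyte attractant, was at 4.11, 5.16 and 4.82 in KO diaphragm and 4.11, 3.63 and 3.85 on the arrays labelled WT diaphragm, so that replicate 1 of the KO diaphragm equalled the highest of the other group. It was higher by 0.83 (adjusted p = 0.018), a call lost without KO diaphragm replicate 2 or 3 or without replicate 2 or 3 labelled WT diaphragm (adjusted p up to 0.0914). Its difference of 0.61 from KO gastrocnemius was not called (adjusted p = 0.07). Ccl5, a ligand made by T cells and macrophages, was at 5.93, 6.42 and 7.06 in KO diaphragm, 5.96, 5.95 and 5.75 on the arrays labelled WT diaphragm and 5.62, 5.68 and 5.60 in KO gastrocnemius. It was higher by 0.83 than in KO gastrocnemius (adjusted p = 0.00528). Its difference of 0.58 from the arrays labelled WT diaphragm (adjusted p = 0.0403) was lost without each of those 3 arrays and without KO diaphragm replicate 2 or 3 (adjusted p up to 0.163). Ccl12, chosen for mention after its values were seen because it was the only called member outside the naming rule, was higher by 0.33 and 0.36, with adjusted p = 0.0499 and 0.0355. The Ccl12 calls were lost without KO diaphragm replicate 2 or 3 in both comparisons, without replicate 1 or 2 labelled WT diaphragm in the first (adjusted p up to 0.193), and without KO gastrocnemius replicate 1 or 3 in the second (adjusted p up to 0.146).

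Macrophage markers were also higher in KO diaphragm. Of 10 measured macrophage markers, 9 were higher in KO diaphragm than in the group labelled WT diaphragm (median log2 difference 1.01) and 10 were higher than in KO gastrocnemius (median 0.89), and none was lower. Their mean log2 signal was 7.36 to 7.82 in KO diaphragm, 6.34 to 6.71 on the arrays labelled WT diaphragm, 6.60 to 6.90 in WT and 6.37 to 6.50 in KO gastrocnemius. Adgre1 (F4/80) had a log2 difference of 2.00 (adjusted p = 3.7e-05) and Lyz2, a lysozyme, of 2.45 (adjusted p = 6.7e-05) against the arrays labelled WT diaphragm, and Cd163 was the marker not called there (0.37, adjusted p = 0.137). The part of the macrophage markers in the chemokine results was not tested. Of the 12 members that were higher than in the group labelled WT diaphragm, 10 were lowest in KO diaphragm replicate 1. The B cell, T cell, mesothelial, endothelial, lymphatic endothelial and fibroblast markers were also lowest in that array of the 3. The macrophage, adipocyte and neutrophil markers were lowest in replicate 3. These orders were not tested.

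**Figure D3:**
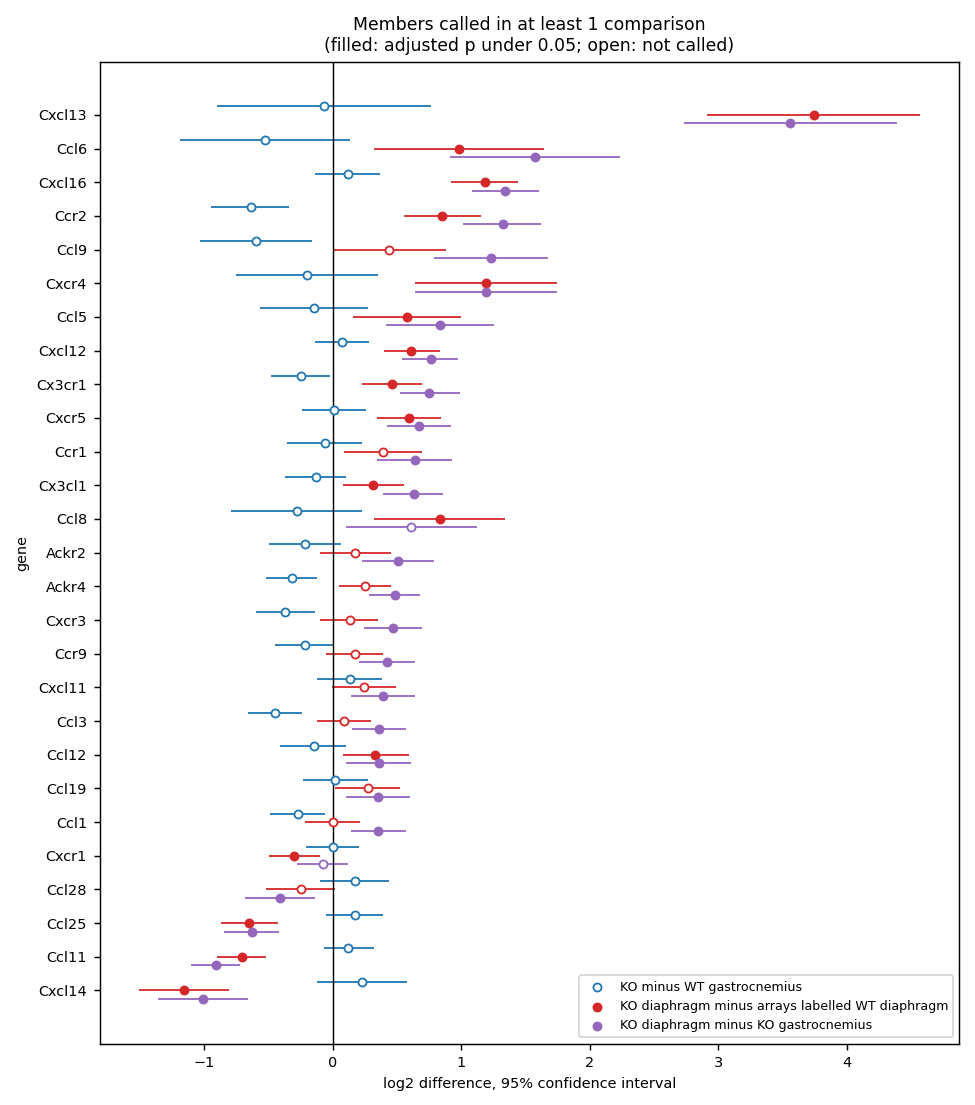
Log2 difference (horizontal axis) with 95% confidence interval of the 27 members called in at least 1 of the 5 comparisons (vertical axis), for KO minus WT gastrocnemius, KO diaphragm minus the arrays labelled WT diaphragm, and KO diaphragm minus KO gastrocnemius. Filled points are at an adjusted p under 0.05 and open points are not; Cxcl13 lies at 3.74 and 3.56 for KO diaphragm, Cxcl14 at -1.16 and -1.01, and no point is filled for gastrocnemius.

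The ligands that attract neutrophils, Cxcl1, Cxcl2, Cxcl3 and Cxcl5, are named here after their values were seen. They were not called in any comparison, with log2 differences of -0.11, -0.13, -0.27 and -0.11 between KO diaphragm and the arrays labelled WT diaphragm. Of 9 measured neutrophil markers, 0 were called in that comparison by limma. At an unadjusted p under 0.05 there were 2, beside 7805 of 19938 genes, with a median difference of 0.02 and a mean of -0.05 over the list. There was 1 call (Csf3r, higher by 0.60, adjusted p = 0.00159) against KO gastrocnemius. Their mean log2 signal was 4.49 to 4.58 in KO diaphragm and 4.53 to 4.66 on the arrays labelled WT diaphragm. Cxcr1, a receptor for such ligands, was lower in KO diaphragm, at 4.98, 5.07 and 4.96 beside 5.32, 5.22 and 5.38 (a log2 difference of -0.30, adjusted p = 0.0272). That call was lost without replicate 1 or 3 of either group (adjusted p up to 0.0979), and against KO gastrocnemius the difference was -0.08.

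Cxcr3, Cxcl11 and Ccr9, genes of T cell traffic, were called against KO gastrocnemius and not against the arrays labelled WT diaphragm. Cxcr3, the receptor of Th1 cells for Cxcl9, Cxcl10 and Cxcl11, was at 5.44, 5.30 and 5.59 in KO diaphragm and 4.78, 5.15 and 5.01 in KO gastrocnemius, higher by 0.47 (adjusted p = 0.00415), and differed by 0.13 from the arrays labelled WT diaphragm (adjusted p = 0.404). Its WT gastrocnemius arrays, at 5.38, 5.33 and 5.35, lay within the range of KO diaphragm. Cxcl11 was higher by 0.39 than in KO gastrocnemius (adjusted p = 0.0216), a call lost without KO diaphragm replicate 2 or KO gastrocnemius replicate 1 (adjusted p up to 0.112). Against the arrays labelled WT diaphragm Cxcl11 differed by 0.24 (adjusted p = 0.147). Cxcl10, mentioned after its values were seen, was at 4.48, 5.15 and 6.41 in KO diaphragm and at or under 4.95 elsewhere. Replicate 3 alone was far above, and Cxcl10 was not called (differences of 0.71 and 0.82, adjusted p = 0.116 and 0.0705). Ccr9, the gut homing receptor, was higher by 0.42 than in KO gastrocnemius (adjusted p = 0.00705), and differed by 0.17 from the arrays labelled WT diaphragm (adjusted p = 0.241). Ccr7, the receptor that leads T cells and dendritic cells to lymph nodes, was at 5.34, 5.27 and 5.47 in KO diaphragm and 5.69, 5.51 and 5.50 on the arrays labelled WT diaphragm, and was not called (-0.20, adjusted p = 0.111). Of 9 measured T cell markers, 2 were higher in KO diaphragm than in the group labelled WT diaphragm and 4 were higher than in KO gastrocnemius, with a mean log2 signal of 5.27, 5.50 and 5.71 on its 3 arrays and 5.02 to 5.28 on the other 9. Cd2 and Cd3g were the 2, at 1.34 and 1.18, and the part of the T cell markers was not tested.

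Ccl19, a ligand of Ccr7, was at 7.04, 7.14 and 7.08 in KO diaphragm, 6.88, 6.84 and 6.73 on the arrays labelled WT diaphragm and 6.61, 6.64 and 6.97 in KO gastrocnemius. It was higher by 0.35 than in KO gastrocnemius (adjusted p = 0.0387), a call lost without each of the 3 KO diaphragm arrays and without KO gastrocnemius replicate 1 or 2 (adjusted p up to 0.146). It was also lost when the arrays labelled WT diaphragm were left out of the fit (adjusted p = 0.0554). Its 5 probe sets belong to near-identical gene copies and cannot be assigned to a copy. The others, which were not tested, also had their highest mean in KO diaphragm. Their means were 6.95 to 7.06 there, 6.58 to 6.62 on the arrays labelled WT diaphragm, 6.49 to 6.53 in KO gastrocnemius and 6.44 to 6.51 in WT gastrocnemius. Ccl3, an inflammatory ligand of macrophages, was at 4.16, 4.26 and 4.19 in KO diaphragm and 3.90, 3.82 and 3.82 in KO gastrocnemius, higher by 0.36 (adjusted p = 0.0124). Against the arrays labelled WT diaphragm Ccl3 differed by 0.09 (adjusted p = 0.538), and its mean in WT gastrocnemius, 4.29, was above that in KO diaphragm, 4.20. Ccl1, a ligand of Ccr8, was higher by 0.35 than in KO gastrocnemius (adjusted p = 0.0152), a call lost without KO diaphragm replicate 3 or KO gastrocnemius replicate 2 or 3 (adjusted p up to 0.0712). Ccl1 had means of 5.38 in KO diaphragm, 5.39 on the arrays labelled WT diaphragm (adjusted p = 0.99 for the difference), 5.30 in WT gastrocnemius and 5.03 in KO gastrocnemius. For both genes KO gastrocnemius had the lowest mean. Other members called against KO gastrocnemius shared this, among them Cxcr3, Ccr9, Ackr2, Ackr4, Ccl9, Ccr2 and Cx3cr1.

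Apart from Cxcr1, the members that were lower in KO diaphragm were ligands. Cxcl14, a ligand of epithelia, fat and muscle, was at 8.11, 7.84 and 8.09 in KO diaphragm, 9.42, 9.22 and 8.89 on the arrays labelled WT diaphragm, 9.08, 8.80 and 9.20 in KO gastrocnemius and 8.60, 9.14 and 8.65 in WT gastrocnemius (probe set 10409579). It was 2.24-fold lower than in the group labelled WT diaphragm (log2 difference -1.16, interval -1.51 to -0.81, adjusted p = 0.000102) and 2.02-fold lower than in KO gastrocnemius (-1.01, interval -1.36 to -0.66, adjusted p = 0.000305). Ccl11 (eotaxin), which draws eosinophils and is made by fibroblasts, was at 7.11, 7.28 and 7.10 in KO diaphragm, 7.87, 7.90 and 7.85 on the arrays labelled WT diaphragm, 8.12, 8.03 and 8.08 in KO gastrocnemius and 7.86, 7.91 and 8.09 in WT gastrocnemius. It was 1.64-fold lower (log2 difference -0.71, interval -0.90 to -0.52, adjusted p = 4.02e-05) and 1.88-fold lower (-0.91, interval -1.10 to -0.72, adjusted p = 4.07e-06).

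Ccl25, the thymic and gut ligand of Ccr9, was at 5.89, 5.61 and 5.95 in KO diaphragm and between 6.20 and 6.54 on the other 9 arrays, with log2 differences of -0.65 (adjusted p = 0.000281) and -0.63 (adjusted p = 0.000303). Its other probe set was also lower in KO diaphragm, at 5.15 beside means of 5.60 to 5.96. Ccl28, a mucosal ligand with low signal, was lower than in KO gastrocnemius (log2 difference -0.41, adjusted p = 0.0256), a call lost without KO diaphragm replicate 2 or 3 or KO gastrocnemius replicate 1 (adjusted p up to 0.132). Its difference of -0.25 from the arrays labelled WT diaphragm was not called (adjusted p = 0.166). Of 6 measured fibroblast markers, 4 were higher in KO diaphragm than in the group labelled WT diaphragm and none was called lower. Of 5 adipocyte markers, 4 were higher in that comparison and none was called lower. Their part in the lower ligands was not tested.

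Of the 4 atypical receptors, which shape gradients, 2 were higher when KO diaphragm was set against KO gastrocnemius. By limma, 0 were called against the arrays labelled WT diaphragm. There 3 had an unadjusted p under 0.05, Ackr3 and Ackr4 higher and Ackr1 lower, beside 7805 of 19938 genes. Ackr4, which removes Ccl19 and Ccl25, was at 5.20, 5.11 and 5.33 in KO diaphragm, 4.98, 4.85 and 5.06 on the arrays labelled WT diaphragm and 4.68, 4.79 and 4.73 in KO gastrocnemius, higher by 0.48 than the last (adjusted p = 0.0012) and by 0.25 than the arrays labelled WT diaphragm (adjusted p = 0.0586). Its WT gastrocnemius arrays, at 5.14, 5.02 and 4.99, overlapped KO diaphragm. Ackr2, which removes inflammatory CC ligands and is known from lymphatic endothelium, was higher by 0.51 than in KO gastrocnemius (adjusted p = 0.00818) and differed by 0.17 from the arrays labelled WT diaphragm (adjusted p = 0.343). Ackr1, the Duffy receptor of venules and red cells, was at 5.04, 5.10 and 5.12 in KO diaphragm and at or above 5.21 on the other 9 arrays, and was not called (-0.43, adjusted p = 0.064, and -0.29, adjusted p = 0.206). All 6 lymphatic endothelial markers were higher in KO diaphragm in both comparisons, with a mean log2 signal of 7.73 to 8.18 against 6.04 to 6.42 on the other 9 arrays. Of 9 endothelial markers 8 were higher in each, and all 8 mesothelial markers were (7.58 to 8.40 against 5.04 to 5.38). Their part in the chemokine results was not tested.

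**Figure D4:**
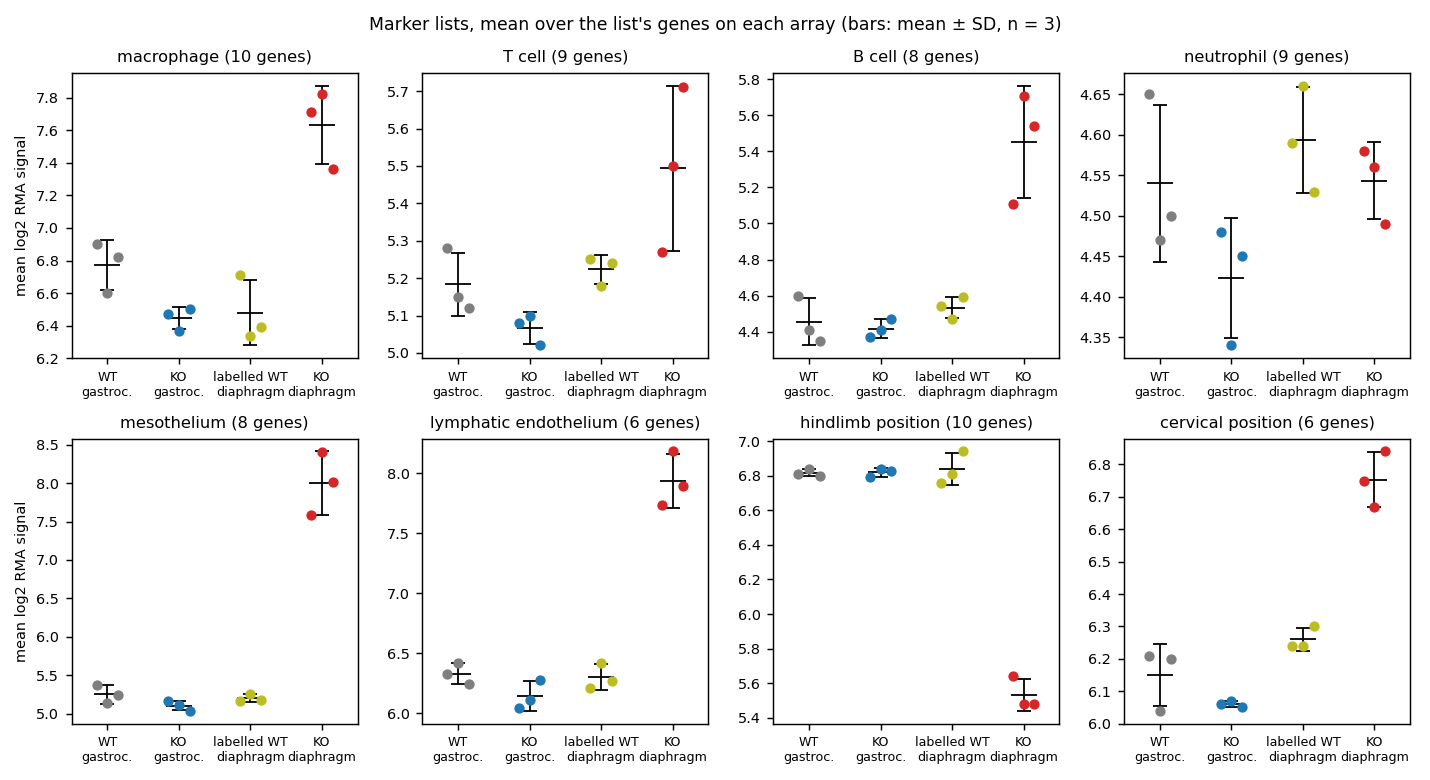
Mean log2 RMA signal over the measured genes of 8 marker lists (vertical axes, each panel with its own range) by group (horizontal axes, 3 arrays in each); bars are the mean ± SD (n = 3). KO diaphragm is at 7.58 to 8.40 for mesothelium against 5.04 to 5.38 elsewhere, and its neutrophil level (4.49 to 4.58) lies within the range of the other groups.

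Other genes of the chemokine pathway were read from lists drawn up by function. Beside the counts below, 16.3% of all genes were higher and 11.2% lower against the arrays labelled WT diaphragm. Against KO gastrocnemius the shares were 17.7% and 11.2%. The lists hold genes of leukocytes, and the part of the macrophage, B cell and other markers in these counts was not tested. Of 24 measured genes of receptor signalling, 14 were higher and 1 was lower in KO diaphragm than in the group labelled WT diaphragm (median 0.52 beside -0.04 over all genes), and 19 were higher and 2 lower than in KO gastrocnemius. Among them were Ptk2b, a kinase downstream of chemokine receptors (log2 difference 1.61, adjusted p = 1.44e-05, against the arrays labelled WT diaphragm), the G protein subunit Gnai2 (0.57, adjusted p = 0.000445), Rgs18, a regulator of G protein signalling (1.07, adjusted p = 0.000564) and Rac2, a GTPase of leukocytes (0.59, adjusted p = 0.00336). Rac1, its counterpart in most cells, was lower (-0.34, adjusted p = 0.0113). Of 25 measured inducers of chemokine genes, 10 were higher and 0 lower (median 0.10). These were receptors and signal proteins such as Tnfrsf1a (0.71, adjusted p = 9.15e-05), Irf1 (1.06, adjusted p = 6e-05) and Tlr4 (0.92, adjusted p = 0.00134), whereas the cytokines Tnf, Il1b, Il6 and Ifng were not called, with differences of 0.10, 0.23, 0.01 and 0.04. Of 16 genes listed for chemokine processing and display, 9 were higher and 0 lower (median 0.48). That list is mixed. It also holds Pf4 and Ppbp, which are themselves chemokines that the symbol rule leaves out, and Ccrl2, Cklf and Cmtm3. The higher genes included the protease Dpp4, which trims chemokines such as Cxcl12 (1.68, adjusted p = 7.41e-06). Adam10 and Adam17, which shed Cx3cl1 and Cxcl16 from the membrane, were also higher (0.61, adjusted p = 0.0032, and 0.75, adjusted p = 1.38e-05).

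The effect of the Cox6a2 deletion in hindlimb muscle was asked by KO against WT gastrocnemius. No member was called by limma, against 0.406% of all genes higher and 0.186% lower, and 9 members had an unadjusted p under 0.05, all of them lower in KO: Ackr1, Ackr4, Ccl1, Ccl3, Ccl9, Ccr2, Ccr9, Cx3cr1 and Cxcr3. Of all 19938 genes, 3279 had an unadjusted p under 0.05, a like share. The methods' t-test gave 7 members at an unadjusted p under 0.05, against 13.6% of all genes, and 0 after Benjamini-Hochberg adjustment. Over the family, 38 of 56 differences were negative, beside 10669 of 19938 over all genes. The family's differences had a median of -0.10, beside -0.01 over all genes, and ranged from -0.64 to 0.30. The largest was that of Ccr2, at 4.14, 4.0 and 3.78 in KO and 4.74, 4.62 and 4.49 in WT, with a log2 difference of -0.64 (interval -0.95 to -0.34, adjusted p = 0.0613). Ccl3 was at 3.90, 3.82 and 3.82 in KO and 4.32, 4.09 and 4.48 in WT, with a difference of -0.45 (interval -0.66 to -0.24, adjusted p = 0.0585). Neither group overlapped the other for these genes, and how many of all genes were separated in this way was not counted. Without WT gastrocnemius replicate 2, Ccl3 passed the threshold (-0.55, adjusted p = 0.021).

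Macrophage markers lay lower in the same comparison: 10 of 10 differences were negative, beside 10669 of 19938 over all genes, with a median of -0.31. By limma 0 of these markers were called, although 2 had an unadjusted p under 0.05. Their mean log2 signal was 6.37 to 6.50 in KO and 6.60 to 6.90 in WT gastrocnemius, and their part was not tested. Among the ligands called in KO diaphragm, none of which was called between the gastrocnemius groups, Cxcl13 differed by -0.07 (interval -0.90 to 0.76), Cxcl16 by 0.12 (-0.14 to 0.37), Cxcl12 by 0.07 (-0.14 to 0.28), Cxcl14 by 0.23 (-0.12 to 0.58) and Ccl11 by 0.12 (-0.07 to 0.32) in gastrocnemius. Larger differences were those of Ccl9 (-0.60, interval -1.03 to -0.16), Ccl6 (-0.53, -1.19 to 0.13), Ccl8 (-0.28, -0.79 to 0.23) and Ccl1 (-0.27), besides Ccl3. The interval of Cxcl13 is wide because the fit pools the spread of KO diaphragm. Among the pathway genes, Adam17 alone of the 16 listed for chemokine processing and display was called, higher by 0.41 in KO gastrocnemius (adjusted p = 0.04). By limma, 0 of 24 genes of receptor signalling and 0 of 25 inducers were called (2 and 5 at an unadjusted p under 0.05).

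By label, the muscles of WT mice were compared in the arrays labelled WT diaphragm against WT gastrocnemius. No member was called by limma, against 0.296% of all genes higher and 0.166% lower. An unadjusted p under 0.05 was found for 6 of 56 members and for 2577 of 19938 genes, a like share, and the smallest adjusted p of a member was 0.327. The methods' t-test gave 2 members at an unadjusted p under 0.05, against 9.68% of all genes, and 0 after adjustment.

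Whether KO minus WT differed between the muscle labels was tested by the interaction of genotype and muscle label. It was called higher, toward the diaphragm label, for 13 members (23.2%, against 8.76% of all genes) and lower for 3 (5.36%, against 6.07% of all genes). Of these 16 members, 12 were also called against the arrays labelled WT diaphragm. The other 4, Ccl9, Ackr4, Ccl3 and Cxcr3, had differences of 0.44, 0.25, 0.09 and 0.13 there and of -0.60, -0.32, -0.45 and -0.37 in gastrocnemius, where they were not called either. The interaction holds the arrays labelled WT diaphragm, so it cannot be told apart from a difference between muscles. Ccl6 had a difference of 0.98 by the diaphragm label and of -0.53 in gastrocnemius, where it was not called (limma adjusted p = 0.41). Ccr2 had differences of 0.85 by the diaphragm label and of -0.64 in gastrocnemius, where it was not called either (limma adjusted p = 0.0613). Its interaction was 1.49 (SE 0.20, adjusted p = 0.000198).

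Many of these genes lie close together. A run here joins members at most 5 places apart in the order of protein-coding genes, so other genes can lie between them. By the order of genes in RefSeq (GRCm38.p6), 5 members on chromosome 5 (Cxcl5, Cxcl3, Cxcl15, Cxcl1 and Cxcl2) form a run of neighbours in which 0 were called by limma in KO diaphragm in either comparison. On chromosome 11, a run of 5 (Ccl5, Ccl9, Ccl6, Ccl3 and Ccl4) held 2 that were higher against the arrays labelled WT diaphragm and 4 against KO gastrocnemius. A run of 6 (Ccl2, Ccl7, Ccl11, Ccl12, Ccl8 and Ccl1) there held members in both directions, 2 higher and 1 lower in each comparison. On chromosome 9, 7 receptors (Ccr9, Cxcr6, Xcr1, Ccr1, Ccr1l1, Ccr3 and Ccr2) held 1 and 3 that were higher. On chromosome 8, a run of 3 (Ccl22, Cx3cl1 and Ccl17) held 1 that was higher in each comparison. Beside these small counts, 16.3% of all genes were higher against the arrays labelled WT diaphragm and 17.7% against KO gastrocnemius, and 11.2% were lower in each. Whether calls gather in runs was not tested.

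Promoters were read from 250 bases before to 50 after the start for 42 members (44 promoters; RefSeq, GRCm38.p6), and searched on both strands for 2 cores that may overlap each other. The NF-kB core GGGANTTTC was found in 6 of 44 promoters (13.6%), of Ccr3, Cxcl1, Cxcl2, Cxcl3, Cxcl9 and Cxcr2, and in 1.11% of all promoters. The interferon response core GAAANNGAA was found in 8 (18.2%), of Ccl1, Ccl19, Ccl3, Ccr2, Cxcl10, Cxcl14, Cxcl9 and Cxcr1, and in 8.56% of all promoters. The neutrophil attractants Cxcl1, Cxcl2 and Cxcl3 share the former, whereas Ccr2, higher in KO diaphragm, and Cxcl14, lower there, both hold the latter. These are shown to set promoters with a shared core beside members that were not called or that differed in opposite directions. Each line is read along the gene's own strand, with the core in capitals; a core on the other strand appears as its reverse complement. The windows are chr5:90891149-90891207 (plus strand) for Cxcl1, chr5:90903777-90903835 (plus) for Cxcl2, chr5:90786003-90786061 (plus) for Cxcl3, chr9:124102072-124102130 (plus) for Ccr2 and chr13:56296690-56296748 (minus) for Cxcl14.
Cxcl1: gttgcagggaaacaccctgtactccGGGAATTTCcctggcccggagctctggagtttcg
Cxcl2: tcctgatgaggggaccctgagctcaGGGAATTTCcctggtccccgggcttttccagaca
Cxcl3: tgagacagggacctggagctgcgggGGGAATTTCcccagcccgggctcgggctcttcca
Ccr2: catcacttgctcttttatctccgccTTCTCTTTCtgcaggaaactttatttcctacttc
Cxcl14: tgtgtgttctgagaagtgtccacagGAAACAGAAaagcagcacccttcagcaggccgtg
A match describes the letters of the window and not a bound site.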

How the data were processed

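RNA was labelled from whole muscle and hybridised to mouse Gene 1.0 ST arrays, 12 in all. The deposited values are log2 signals that the authors made in Affymetrix Expression Console by RMA sketch with its standard settings (per the labels and methods; version not given in the sources used here), a method that corrects background, normalizes across arrays and combines probes into probe sets. They ran from 1.65 to 14.4, with no identical columns. There is no sequencing depth; precision depends on how many arrays there are, and the residual SD of the median gene was 0.138.

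Of 35556 probe sets, 21789 carry 1 symbol in GEO's platform annotation and were kept, the brightest per gene; 1621 carry several and 12146 none. The 19938 genes were fitted in R 4.3.3 with limma 3.58.1 (lmFit, contrasts.fit, eBayes) in 1 model with 4 group means (8 residual and 6.18 prior degrees of freedom), 5 comparisons and Benjamini-Hochberg adjustment over all genes; genes were called at an adjusted p under 0.05. Exact permutation of 3 arrays against 3 cannot go below 0.1 and was not used. Folds are 2 to the power of the log2 difference. The fit was tested on simulated data.

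The members, lists, markers and motifs were chosen with earlier results of these data known. Named genes were the 25 members with the smallest adjusted p among those called in any comparison, and 17 measured genes of set ligand, receptor and atypical receptor groups, 31 in all; exceptions are marked. Marker lists were macrophage, T cell, B cell, neutrophil, mesothelium, endothelium, lymphatic endothelium, fibroblast, adipocyte, skeletal muscle, hindlimb and cervical position. Alternatives were: leaving out each array in turn; the methods' t-test; a gene's probe sets averaged; genes under the median signal dropped; arrays centred on their medians, or quantile normalized; eBayes with both trend and robust; replicate number as a block; each comparison fitted on its own arrays; and the group labelled WT diaphragm left out.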

Additional observations from a re-analysis of the deposited data

Results flagged for a closer look

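For 16 members, KO minus WT differed between the muscle labels by the interaction term (limma, adjusted p under 0.05), each difference resting on the arrays labelled WT diaphragm. The interaction, KO minus WT by the diaphragm label minus the same in gastrocnemius, was 3.82 for Cxcl13, 1.51 for Ccl6, 1.49 for Ccr2, 1.39 for Cxcr4, 1.11 for Ccl8, 1.06 for Cxcl16, 1.04 for Ccl9, 0.71 for Cx3cr1, 0.58 for Cxcr5, 0.57 for Ackr4, 0.54 for Cxcl12, 0.54 for Ccl3 and 0.50 for Cxcr3 on the log2 scale. It was -0.82 for Ccl25, -0.84 for Ccl11 and -1.39 for Cxcl14. The calls of Ccl6, Ccl8, Ccl9, Cxcr3, Cxcr4 and Cxcr5 were lost without certain arrays. For Cxcr4 this was KO gastrocnemius replicate 3 (adjusted p = 0.0504). For Ccl6 it was replicates 2 and 3 labelled WT diaphragm, WT gastrocnemius 2 and 3, and KO gastrocnemius 1 and 2 (adjusted p up to 0.0779). For Ccl9 it was replicates 2 and 3 labelled WT diaphragm, WT gastrocnemius 2, KO diaphragm 2, and KO gastrocnemius 1 and 3 (up to 0.0659). Ccl8 was lost in 8 of 12 such fits (up to 0.0986), without replicate 2 or 3 labelled WT diaphragm, WT gastrocnemius 3, KO diaphragm 2 or 3, or any KO gastrocnemius array. Cxcr5 was lost in 8 (up to 0.0716), without replicate 1 or 2 labelled WT diaphragm, WT gastrocnemius 1 or 3, KO diaphragm 1 or 2, or KO gastrocnemius 1 or 3. Cxcr3 was lost in 9 (up to 0.0986), all but those without replicate 3 labelled WT diaphragm, KO diaphragm 2 or KO gastrocnemius 2.

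Probe sets outside the comparisons held a signal too. Of the 7 family probe sets with several symbols, 4 gave identical values and are annotated to the same 7 symbols, near-identical copies of a CC ligand that cannot be told apart on the array. Their mean log2 signal was 10.06 in KO diaphragm (9.82 to 10.25), 6.85 on the arrays labelled WT diaphragm (6.75 to 6.94), 7.45 in WT gastrocnemius (7.25 to 7.56) and 7.48 in KO gastrocnemius (7.40 to 7.55). The rest of the 7, each with 5 symbols, differed little between groups. Group means were 6.84 to 6.95 for probe sets 10504164 and 10504194, and 7.53 to 7.63 for 10512315.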

How the results depend on the processing

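None of the 57 single-gene calls changed sign under the alternatives run for it. When genes under the median signal were dropped, 12 members were tested. Of these, 8 were called against the arrays labelled WT diaphragm, 10 against KO gastrocnemius and 8 in the interaction, fewer because fewer were tested. Among all genes kept, the shares called were 45.7%, 46.4% and 27.6%. The methods' t-test with Benjamini-Hochberg adjustment called 5 of 56 members against the arrays labelled WT diaphragm (beside 9.98% of all genes). Against KO gastrocnemius it called 13 (beside 17.4% of all genes). At an unadjusted p under 0.05 it gave 7 in KO against WT gastrocnemius (13.6% of all genes) and 2 between the WT groups (9.68%). The cause was not tested. Without each array in turn, the calls ranged from 0 to 1 in gastrocnemius (1 without WT gastrocnemius replicate 2, Ccl3), 11 to 17 against the arrays labelled WT diaphragm, 21 to 26 against KO gastrocnemius, 11 to 19 in the interaction and 0 between the WT groups. The shares of all genes called in these fits were, in the same order, 0.16% to 0.406%, 21.6% to 25.9%, 22.9% to 25.9%, 11.8% to 15.1% and 0.196% to 0.421%. Of the 57 calls, 40 held without every array and 17 were lost without some array. Without the arrays labelled WT diaphragm, 24 members were called against KO gastrocnemius (28.3% of all genes) and 0 in KO against WT gastrocnemius (0.386%). With each comparison fitted on its own arrays, 13 members were called against the arrays labelled WT diaphragm and 25 against KO gastrocnemius (24.4% and 29.3% of all genes). There were 0 in gastrocnemius and 0 between the WT groups, and 4 single-gene calls were lost. Replicate numbers are shared between groups, but deviations of same-numbered arrays correlated at -0.10 to 0.16, so that the numbers were not taken to pair the arrays. With the replicate block, the calls were 15, 24, 16, 0 and 0 for the arrays labelled WT diaphragm, KO gastrocnemius, the interaction, gastrocnemius and the WT groups, and Ccl12, Ccl19 and Cx3cl1 each lost a call. The shares of all genes were then 27%, 28%, 14.4%, 0.466% and 0.316%. Other scalings left the all-gene medians within 0.1 of those reported, although with median centring that of KO against WT gastrocnemius went from -0.01 to 0.03 and that of KO diaphragm against KO gastrocnemius from 0.02 to -0.06.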
